A study of Rattus norvegicus with 18 samples.

Results

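Voltage-gated sodium channels and HCN channels were followed as 8 genes in the dorsal hippocampus of rats. The genes were chosen by name, with earlier results of these data known. They are the pore-forming alpha subunits Scn1a, Scn2a, Scn3a and Scn8a, the auxiliary beta subunits Scn2b, Scn3b and Scn4b, and the HCN subunit Hcn2. All 8 were among the 38445 genes counted and all 8 were among the 17853 genes tested.

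The study compared gene expression in the hippocampus during chronic ethanol feeding and during withdrawal from it. All 18 animals were adult male wild-type Sprague-Dawley rats on a liquid Lieber-DeCarli diet, with no transgene or drug. The control group (6 rats) had the diet without ethanol. The ethanol group (6 rats) had 9% (v/v) ethanol in the diet for 15 or 16 days and was taken with 0 h of withdrawal. The withdrawal group (6 rats) had the same ethanol diet and then 24 h without ethanol. Each library came from 1 rat.

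Sodium channels open when a neuron is depolarised and carry the inward current that starts and carries the action potential. The alpha subunit forms the pore, and the beta subunits, which are single-pass membrane proteins with an immunoglobulin-like domain, change its gating and its placement in the membrane. HCN channels open on hyperpolarisation, bind cyclic nucleotides and carry the mixed cation current called Ih, which sets resting properties and rhythmic firing. In hippocampus, Scn2a and Scn8a products are the main alpha subunits of principal neurons, Scn1a product is prominent in parvalbumin-positive interneurons, and Scn3a is best known from the developing brain.

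In the count files, which use the Rnor_6.0 genome, 3 of the alpha genes lay together on chromosome 3. Scn3a (gene ID 497770) was at chr3:51530897-51643140 on the - strand, Scn2a (24766) at chr3:51687910-51822008 on the + strand and Scn1a (81574) at chr3:52388811-52533365 on the - strand. Between Scn3a and Scn2a were 44.8 kb with no other gene listed, and between Scn2a and Scn1a were 566.8 kb with 6 genes. Scn9a and Scn7a followed Scn1a on the same strand. The 3 beta genes lay on the + strand of chromosome 8, Scn3b (245956) at chr8:44136413-44159011, Scn2b (25349) at chr8:49419003-49431110 and Scn4b (315611) at chr8:49441106-49456279. Only 9995 bases separated Scn2b from Scn4b, with no gene listed between them. Scn8a (29710) was at chr7:142575629-142683659 on the + strand and Hcn2 (114244) at chr7:12851730-12870087 on the - strand. Reads were counted by strand. The genes overlapping Scn1a, Scn3a and Scn2b, 1 each on the opposite strand, averaged at most 0.348 CPM (counts scaled to a common library size by TMM normalization).

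RefSeq promoter sequences of the GRCr8 assembly were found for 6 of the 8 genes (Scn2a, Scn3a, Scn8a, Scn2b, Scn4b and Hcn2). Of these, 5 are printed as the 250 bases before the annotated start, 5′ to 3′ on the gene's strand. Scn2b is shown because it is the gene that passed the test below, Scn4b because it is the neighbour of Scn2b, Hcn2 because its level followed that of Scn4b from rat to rat, and Scn2a and Scn8a because their levels followed each other. Capitals mark the GC box letters GGGCGG or their reverse complement. Coordinates are those of GRCr8.
Scn2b, chr8:54322133-54322382 (+ strand): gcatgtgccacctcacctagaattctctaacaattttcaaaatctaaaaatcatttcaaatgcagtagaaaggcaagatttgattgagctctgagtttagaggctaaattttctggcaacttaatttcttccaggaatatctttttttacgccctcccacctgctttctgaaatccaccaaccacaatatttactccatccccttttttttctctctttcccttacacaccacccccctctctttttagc
Scn4b, chr8:54343623-54343872 (+ strand): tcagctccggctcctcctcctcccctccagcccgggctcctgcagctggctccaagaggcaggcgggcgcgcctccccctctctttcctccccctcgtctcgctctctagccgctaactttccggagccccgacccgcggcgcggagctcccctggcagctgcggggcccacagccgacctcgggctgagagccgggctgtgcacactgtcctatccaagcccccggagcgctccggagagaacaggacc
Hcn2, chr7:10639458-10639707 (- strand): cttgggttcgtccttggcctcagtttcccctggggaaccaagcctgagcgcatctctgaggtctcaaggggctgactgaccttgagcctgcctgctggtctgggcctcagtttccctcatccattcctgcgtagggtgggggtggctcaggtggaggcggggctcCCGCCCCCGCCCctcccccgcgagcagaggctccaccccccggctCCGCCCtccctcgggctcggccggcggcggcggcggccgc
Scn2a, chr3:70710706-70710955 (+ strand): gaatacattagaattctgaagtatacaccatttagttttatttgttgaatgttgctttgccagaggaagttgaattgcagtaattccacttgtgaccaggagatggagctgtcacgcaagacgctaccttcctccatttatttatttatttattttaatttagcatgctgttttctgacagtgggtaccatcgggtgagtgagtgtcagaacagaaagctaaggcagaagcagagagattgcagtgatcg
Scn8a, chr7:133860977-133861226 (+ strand): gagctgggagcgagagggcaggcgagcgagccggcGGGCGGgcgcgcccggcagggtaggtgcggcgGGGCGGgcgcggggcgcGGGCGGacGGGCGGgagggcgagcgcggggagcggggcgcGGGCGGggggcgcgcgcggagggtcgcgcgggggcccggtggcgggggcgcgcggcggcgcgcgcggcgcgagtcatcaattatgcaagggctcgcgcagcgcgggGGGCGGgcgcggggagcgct

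The windows differed in base composition. The Scn2b window had a GC content of 38.8% with 1 CpG, and 11.3% of the 33469 promoter windows in the table had a lower GC content. The Scn4b window next to it on the chromosome had 71.6% GC with 21 CpGs. The Hcn2 window had the same GC content, 71.6%, with 18 CpGs. Scn2a and Scn8a, which moved together across rats, had unlike windows, with 39.6% GC and 4 CpGs for Scn2a and 86.0% GC and 53 CpGs for Scn8a. The median window had 51.2% GC and 5 CpGs. The GC box letters were found 6 times in the Scn8a window and 3 times in the Hcn2 window, counting both strands and overlapping copies, and 30.5% of all windows hold them. Of the other letters searched on both strands, none was found in the 6 windows. The TATA box was searched as TATAAA, which 12.9% of all windows hold. The CCAAT box was searched as CCAAT, which 34.02% hold, and the E-box as CACGTG, which 5.59% hold. The cyclic AMP response element was searched as TGACGTCA, which 1.59% hold. The left part of the RE1 element, the site of the neuronal repressor REST, was searched as TTCAGCACC, which 0.305% hold. A match describes letters in the window and not binding, and the lack of one says only that these letters are not in it.

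Total counts on genes were 30873228 to 42679748 per rat, and the members had between 1524 and 37090 counts in a rat. The labels named no batch, but their index sequences fell into 3 sets. The first was used for the 6 controls alone, the second for the ethanol group together with withdrawal rats 1 and 2, and the third for the remaining 4 withdrawal rats. Index set and control diet thus cannot be told apart. The neuronal markers Snap25 and Rbfox3 were present in every rat, as were the CA1 marker Wfs1 and the dentate granule cell marker Prox1. Of the marker lists, Fibcd1 (CA1) and Lct and Tdo2 (dentate gyrus) were at 0 in some rats and under 0.5 CPM on average. Ethanol rats 1 and 4 and withdrawal rat 5 stood apart from the others in CA1 markers, and were taken as a set after seeing the data. The summed level of the 5 CA1 markers was 231.6, 366.4 and 252.0 CPM in them and 411.1 to 613.1 CPM in the other rats. The summed level of 10 thalamic markers was 1846 CPM in ethanol rat 1, 1082 in ethanol rat 4 and 653.4 in withdrawal rat 5, with a control median of 483.4 and range of 363.2 to 988.9. Other marker lists set other rats apart. Withdrawal rat 1, which was not left out, had 131.6 CPM of dentate and 263.4 of CA3 markers. Ethanol rat 4 had 171.4 and 444.6. The summed 7 choroid plexus markers were 29.1 and 32.1 CPM in withdrawal rats 4 and 5, against 1087 to 2267 in controls. They were 5340, 3597 and 4963 in ethanol rats 1, 4 and 6 and 5351 in withdrawal rat 6. The ranges and medians below hold all rats. Group means of members that were highest or lowest in ethanol rat 1 or 4 or withdrawal rat 5 are also given without these 3 rats. So are the shares and the correlations.

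Levels of different genes were compared per length, as RPKM (CPM after TMM scaling, divided by the length of annotated exon in kilobases). Among the members, Scn3b had the highest level, 157 ± 41.3 RPKM (mean ± SD, n = 18), and Scn3a the lowest, 6.78 ± 0.686 RPKM. Scn3b was above Scn2b (68.2 ± 5.19 RPKM) in all 18 rats, and Scn2b was above Scn2a (44.96 ± 4.61 RPKM) in all 18. The next neighbours did not separate. Scn2a was above Hcn2 (43.4 ± 9.16 RPKM) in 11 of 18 rats, and Hcn2 was above Scn8a (39.8 ± 5.22 RPKM) in 8 of 18. Scn4b, at 19.1 ± 8.24 RPKM, was above Scn1a, at 10.8 ± 3.00 RPKM, in all 18 rats, and Scn1a was above Scn3a in all 18. Nalcn, which encodes the sodium leak channel and is not a member, had 27.2 ± 1.57 RPKM and was above Scn4b in 15 of 18 rats.

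**Figure D1:**
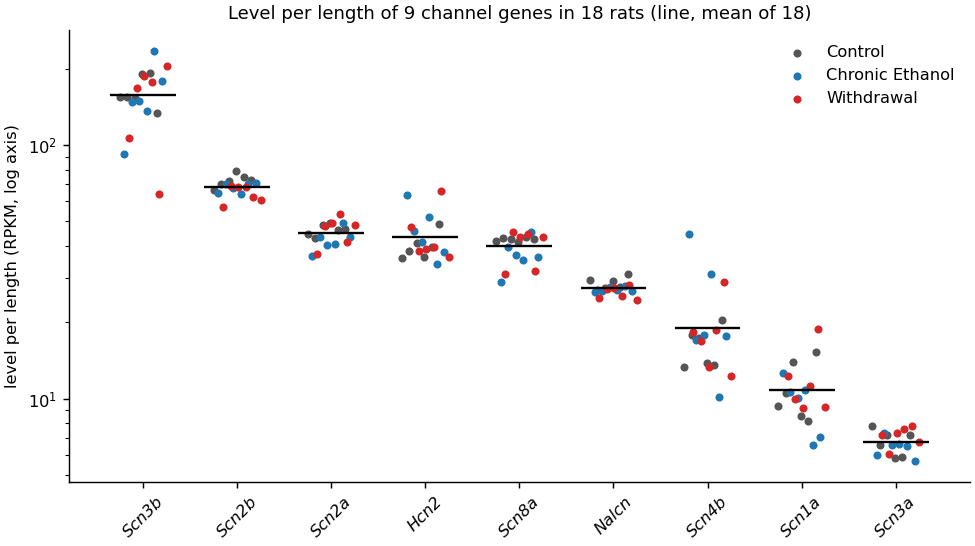
Level per length in RPKM on a log axis for 9 channel genes, ordered by the mean over 18 rats (line), with 1 point per rat and colours for the 3 groups. Scn3b sits highest and Scn3a lowest among the 9, and Scn2a, Hcn2 and Scn8a overlap.

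As shares of the alpha or of the beta members, the mean levels per length kept one order in all 3 groups. Of the summed RPKM of the 4 alpha genes, Scn2a made up 43.5% ± 1.92 in control, 44.3% ± 1.68 in ethanol and 43.9% ± 1.67 in withdrawal rats (SD, n = 6 each). Scn8a made up 39.9% ± 1.71, 38.7% ± 2.60 and 37.8% ± 3.57 in the same order. Scn1a took 10.2% ± 2.38, 10.3% ± 3.15 and 11.45% ± 4.18, and Scn3a the remaining 6.34% ± 0.707, 6.79% ± 0.554 and 6.83% ± 0.997. Of the summed RPKM of the 3 beta members, Scn3b made up 64.6% ± 3.43 in control, 62.1% ± 9.59 in ethanol and 62.7% ± 11.6 in withdrawal rats. Scn2b made up 28.9% ± 1.86, 27.9% ± 3.39 and 28.6% ± 6.403 in the same order, and Scn4b 6.48% ± 1.63, 10.1% ± 6.76 and 8.62% ± 5.23. The share of Scn4b was highest, at 22.1%, in ethanol rat 1. Without ethanol rats 1 and 4 and withdrawal rat 5, Scn4b made up 6.20% ± 2.03 in the 4 ethanol and 6.64% ± 2.20 in the 5 withdrawal rats left, near the control share. Scn3b then made up 66.9% ± 5.41 and 67.03% ± 5.501, above the control mean where the means of all 6 rats lay below it, and Scn2b 26.9% ± 3.42 and 26.3% ± 3.39. Of the alpha genes, Scn1a then made up 8.75% ± 2.27 in ethanol and 9.98% ± 2.35 in withdrawal rats, Scn2a 44.6% ± 2.05 and 44.4% ± 1.32, Scn8a 40.01% ± 1.47 and 39.0% ± 2.32, and Scn3a 6.62% ± 0.629 and 6.64% ± 0.979. No share was tested between groups.

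Between the groups, 1 of the 8 genes passed the test. Scn2b was lower in withdrawal than in control rats, and the other 2 comparisons gave no call among the members. Genes were tested with limma-voom in a model of all 3 groups with 3 surrogate variables (unnamed sources of variation estimated from the data), and q is the Benjamini-Hochberg adjusted p over the 17853 genes, with a threshold of 0.1. At that threshold 5.41% of all genes tested were called between withdrawal and control (2.85% higher and 2.55% lower), 0.493% between ethanol and control (0.336% higher and 0.157% lower), and 2.72% between withdrawal and ethanol (1.23% higher and 1.49% lower). At an unadjusted p under 0.05, limma-voom gave 1, 1 and 2 members, against 19.7%, 12.5% and 16.7% of all genes. The quasi-likelihood test of edgeR with the same surrogate variables also called 1, 0 and 0 members, beside 5.77%, 0.538% and 2.98% of all genes. DESeq2 called 1 in each comparison (Scn2b in the first and Scn1a in the other 2), beside 9.10%, 2.65% and 6.59% of all genes. Without surrogate variables limma-voom called 0 members in all 3 comparisons, and 0.23%, 0.28% and 3.48% of all genes. The mean log2 CPM of 6 rats was also set against that of 6 others in an exact permutation test (two-sided), whose 924 splits can give no p below 0.002165. Of the 24 such tests of members, 3 had a p under 0.05 before any adjustment, with Scn2b the 1 member for withdrawal against control, Scn8a and Scn2b the 2 for ethanol against control, and 0 members for the third pair of groups. Of all genes tested, 12.8%, 13.5% and 14.3% had such a p in the same order. In no comparison were the 2 groups of a member fully apart, while 1.06% (withdrawal and control), 1.32% (ethanol and control) and 1.22% (withdrawal and ethanol) of all genes had groups that did not overlap. The median log2 fold change of the 8 members was -0.012, -0.039 and 0.028 in the 3 comparisons, in the order withdrawal with control, ethanol with control and withdrawal with ethanol, beside 0.00030, 0.00046 and -0.00024 over all genes.

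**Figure D2:**
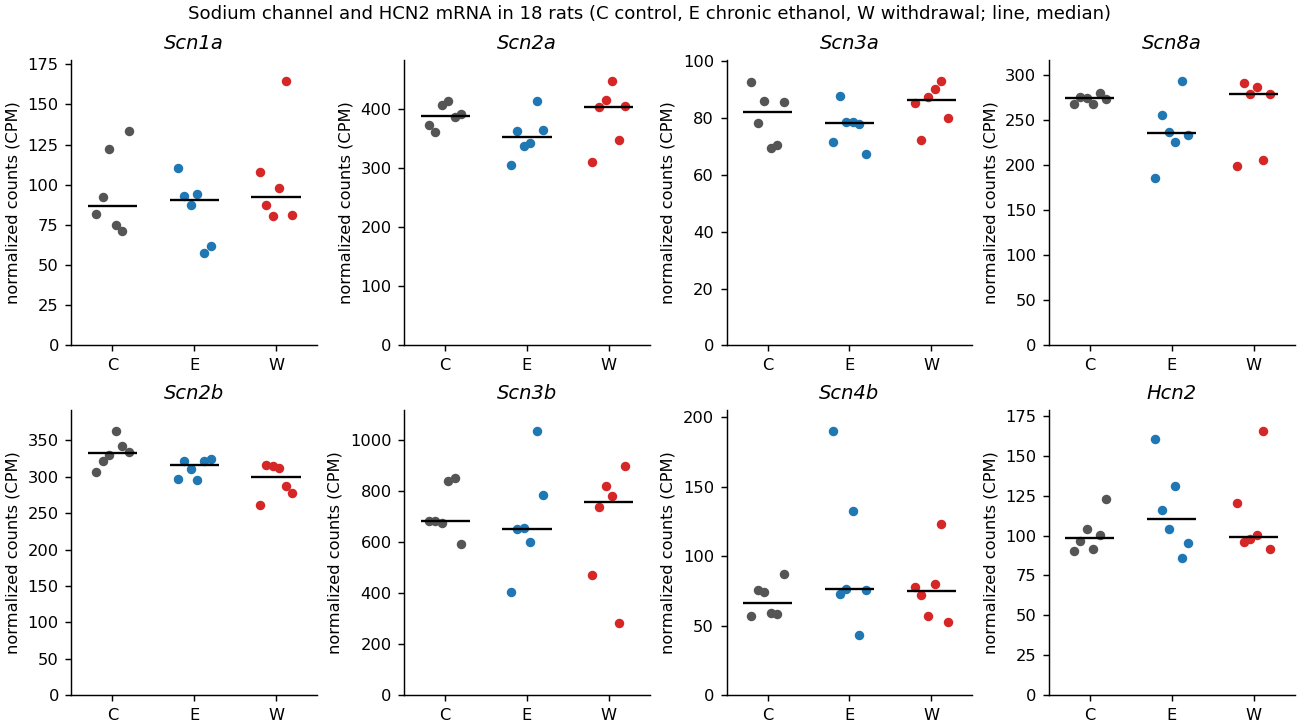
Level in CPM of the 8 genes in each of 18 rats, with 1 point per rat, the median as a line and axes that start at 0. The withdrawal rats lie lower for Scn2b, and single rats lie far from their group for Scn1a, Scn3b, Scn4b and Hcn2.

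Scn1a, whose product carries sodium current in fast-spiking interneurons, ranged from 71.1 to 133.5 CPM in control rats (median 86.9), from 57.3 to 110.6 in ethanol rats (median 90.3) and from 80.5 to 164.4 in withdrawal rats (median 92.5). The 3 groups overlapped. Withdrawal rat 5 was the highest of all rats and lay far above the other withdrawal rats (80.5 to 107.7 CPM). In the fit with surrogate variables Scn1a differed by -0.29 on the log2 scale between ethanol and control (SE 0.086, 95% interval -0.47 to -0.11, q = 0.165). Between withdrawal and ethanol the difference was 0.27 (SE 0.091, q = 0.1501). The unadjusted group means differed less clearly, with a log2 difference of -0.18 between ethanol and control (exact permutation p = 0.403) and 0.28 between withdrawal and ethanol (exact permutation p = 0.238). Mean Scn1a was 95.9 ± 26.02 CPM in control, 84.1 ± 20.6 in ethanol and 103.1 ± 31.8 in withdrawal rats (SD, n = 6). In the 4 ethanol and 5 withdrawal rats left without the 3 that stood apart it was 74.97 ± 18.0 and 90.9 ± 11.7 CPM, both below the control mean. Neither comparison of Scn1a passed the threshold in this fit, and the calls under other settings are given at the end.

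Scn2a, which encodes an alpha subunit of excitatory neurons, ranged from 359.8 to 413.5 CPM in controls (median 388.3), from 305.1 to 412.9 in ethanol rats (median 351.8) and from 310.0 to 446.3 in withdrawal rats (median 403.2). Ethanol rat 1 was lowest, and 3 ethanol rats lay below the lowest control. The mean was 388.0 ± 19.97 CPM in control, 353.9 ± 35.97 in ethanol and 387.3 ± 49.5 in withdrawal rats (SD, n = 6), and without the 3 rats that stood apart 369.2 ± 31.6 in 4 ethanol and 395.3 ± 50.9 in 5 withdrawal rats. The log2 difference of ethanol from control was -0.09 (95% interval -0.21 to 0.027, q = 0.529), and the exact permutation p of the means was 0.0671. Withdrawal and control differed by -0.0019 (95% interval -0.11 to 0.11, q = 0.991).

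Scn3a, the alpha subunit gene of the developing brain, was the steadiest of the low genes. It ranged from 69.5 to 92.7 CPM in controls (median 82.1), from 67.5 to 87.6 in ethanol rats (median 78.1) and from 72.2 to 93.0 in withdrawal rats (median 86.5). Withdrawal rat 5 was the highest of all 18. The mean was 80.4 ± 9.32 CPM in control, 76.96 ± 6.87 in ethanol and 84.8 ± 7.53 in withdrawal rats (SD, n = 6), and 77.9 ± 8.23 and 83.1 ± 7.11 CPM in the 4 ethanol and 5 withdrawal rats left without the 3. Its largest fitted difference was 0.046 on the log2 scale, between withdrawal and ethanol (95% interval -0.10 to 0.20, q = 0.784).

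Scn8a encodes the alpha subunit that dominates mature axon initial segments and nodes. In controls it was held within a narrow range, 267.7 to 279.8 CPM (median 274.2, CV 1.69%). The ethanol rats ranged from 185.2 to 293.1 (median 235.1, CV 14.9%) and the withdrawal rats from 199.1 to 291.1 (median 279.2, CV 16.6%). Of the 6 ethanol rats, 5 lay below the lowest control and 1 above the highest, and of the withdrawal rats 2 lay below and 2 above the control range. The unadjusted log2 difference between ethanol and control was -0.21 (exact permutation p = 0.0303, 1 of 24 tests of members). In the fit with surrogate variables it was -0.13 (SE 0.068, 95% interval -0.27 to 0.013, q = 0.453), and Scn8a was not called. Mean Scn8a was 273.2 ± 4.61 CPM in control, 238.3 ± 35.5 in ethanol and 256.8 ± 42.6 in withdrawal rats (SD, n = 6). Without ethanol rats 1 and 4 and withdrawal rat 5 it was 254.7 ± 27.4 CPM in the remaining 4 ethanol and 267.1 ± 38.4 CPM in the remaining 5 withdrawal rats.

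Scn2b encodes a beta subunit that is joined to the alpha subunit by a disulfide bond and raises the number of channels at the cell surface. Its level was 306.0 to 363.3 CPM in control rats (median 332.5), 295.6 to 324.8 in ethanol rats (median 316.1) and 261.4 to 316.0 in withdrawal rats (median 299.9). Withdrawal rats 1, 5 and 6, at 261.4, 286.9 and 278.1 CPM, lay below the lowest control, the other 3 lay within the control range, and 5 of the 6 controls were above the highest withdrawal rat. Scn2b fell by 0.18 on the log2 scale in withdrawal compared with control (SE 0.043, 95% interval -0.27 to -0.089, q = 0.0428 by limma-voom), a ratio of means of 0.886. The exact permutation p of the means was 0.0152. Ethanol rats lay between, with a log2 difference from control of -0.07 (q = 0.565, exact permutation p = 0.0476). The difference of withdrawal from ethanol was -0.11 (95% interval -0.21 to -0.0079, q = 0.263). The difference between withdrawal and control kept its direction under 15 other settings and in all 18 fits that left out 1 rat. It missed the threshold without surrogate variables (-0.18, q = 0.209), without control rat 6 (-0.16, q = 0.102), without withdrawal rat 6 (-0.15, q = 0.210) and without the 3 rats lowest in CA1 markers (-0.16, q = 0.197).

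Other marker levels differed between withdrawal and control rats as well. The summed level of the 6 dentate granule cell markers was 199.1 to 245.1 CPM in controls and 103.7 to 203.7 in withdrawal rats, and 1 of the 4 tested was called lower with all 4 estimates below 0. Of 7 astrocyte markers 1 was called higher and 2 lower, and of 6 endothelial markers 2 were called higher. These counts stand beside 2.85% of all genes called higher and 2.55% called lower. The other marker lists (general neurons, parvalbumin interneurons, CA1, CA3, thalamus, cortex, choroid plexus, oligodendrocytes and microglia) held 0 calls in this comparison by limma-voom, with 0 to 3 genes a list at an unadjusted p under 0.05. All 4 tested CA3 markers had estimates below 0, and 2 of them had such a p. The summed choroid plexus level ranged from 29.1 to 5351 CPM in withdrawal rats, against 1087 to 2267 in controls. The summed CA1 markers of withdrawal rats 1, 5 and 6, which were lowest in Scn2b, were 411.1, 252.0 and 529.9 CPM, against 431.7 to 589.7 in controls. The summed 6 endothelial markers of the same rats were 337.7, 338.4 and 297.7 CPM, against 249.7 to 311.1 in controls, and their summed 8 neuronal markers were 6213, 6273 and 6052 CPM, against 6193 to 6749. Their summed 5 CA3 markers were 263.4 and 191.5 CPM in withdrawal rats 1 and 5, below the control range of 379.5 to 526.4, and within that range in withdrawal rat 6. With the same group-centred measure as used for pairs of members below, Scn2b had r = -0.67 with the endothelial sum over 18 rats (-0.65 over 15, without the 3 rats), 0.63 with the neuronal sum (0.57), 0.49 with the CA1 sum (0.57), 0.47 with the CA3 sum (0.61) and 0.40 with the dentate sum (0.42). In a bulk tissue sample, fewer cells of a type and less RNA per cell cannot be told apart. The part of these markers in the Scn2b difference was not tested.

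Scn3b encodes a beta subunit that binds the alpha subunit without a covalent bond. It ranged from 591.3 to 849.4 CPM in controls (median 682.2), from 405.7 to 1036 in ethanol rats (median 652.2) and from 283.2 to 898.1 in withdrawal rats (median 758.6). Withdrawal rat 5 was lowest and ethanol rat 5 highest of all 18, a ratio of 3.66, and both treated groups spanned the whole control range. The mean was 719.5 ± 102.0 CPM in control, 688.6 ± 209.7 in ethanol and 664.9 ± 237.1 in withdrawal rats (SD, n = 6). With the 3 rats left out it was 781.2 ± 181.0 CPM in the 4 ethanol and 741.3 ± 162.9 in the 5 withdrawal rats left, above the control mean instead of below it. The fitted log2 difference was 0.039 between ethanol and control (q = 0.851) and -0.066 between withdrawal and control (q = 0.579).

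Scn4b, whose product is linked to the alpha subunit by a disulfide bond and is tied to resurgent current, had the highest ratio of highest to lowest rat among the 8 genes. It ranged from 57.0 to 87.3 CPM in controls (median 66.5), from 43.2 to 190.4 in ethanol rats (median 76.0) and from 52.4 to 123.0 in withdrawal rats (median 75.2). The highest values were those of ethanol rat 1 (190.4), ethanol rat 4 (132.4) and withdrawal rat 5 (123.0), and the highest was 4.41 times the lowest. In controls Scn1a had a higher CV (27.1% against 18.0%), and in withdrawal rats Scn3b did (35.65% against 32.6%). In ethanol rats the CV of Scn4b, 54.3%, was the highest of the 8 genes. The mean was 98.5 ± 53.5 CPM in ethanol, 77.1 ± 25.1 in withdrawal and 68.6 ± 12.4 CPM in control rats (SD, n = 6). Without the 3 rats the means were 67.1 ± 16.0 CPM for the 4 ethanol rats left and 67.9 ± 12.4 CPM for the 5 withdrawal rats left. The fitted log2 difference between ethanol and control was 0.077 (95% interval -0.17 to 0.33, q = 0.838), the widest interval of the 8 genes in that comparison.

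Hcn2, the member that carries Ih, ranged from 90.3 to 123.1 CPM in controls (median 98.3), from 85.7 to 160.5 in ethanol rats (median 110.1) and from 91.6 to 165.7 in withdrawal rats (median 99.0). Withdrawal rat 5 and ethanol rat 1 were highest, and 2 ethanol rats and 1 withdrawal rat lay above the highest control. The fitted log2 differences were 0.044 between ethanol and control (95% interval -0.074 to 0.16, q = 0.799), 0.054 between withdrawal and control (-0.057 to 0.16, q = 0.607) and 0.0097 between withdrawal and ethanol (-0.11 to 0.13, q = 0.958). The mean Hcn2 level was 100.9 ± 12.1 CPM in control, 115.5 ± 27.1 in ethanol and 111.9 ± 28.2 in withdrawal rats (SD, n = 6). Without the 3 rats it was 100.3 ± 12.8 CPM in the 4 ethanol and 101.2 ± 11.2 in the 5 withdrawal rats left.

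**Figure D3:**
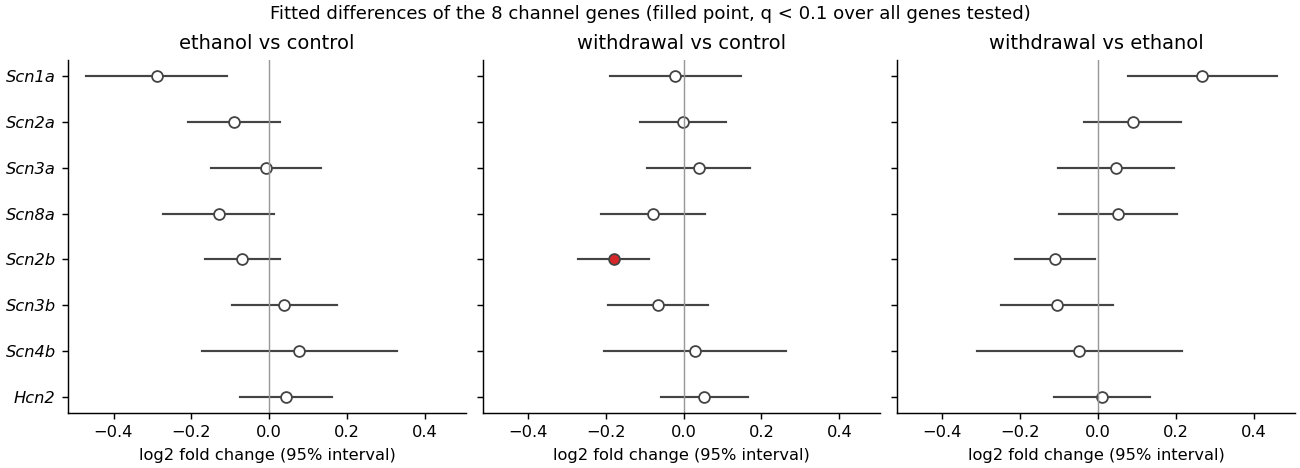
Fitted log2 fold changes of the 8 genes with 95% intervals (lines) in the 3 comparisons, with a filled point where q is under 0.1 over all genes tested. Only Scn2b between withdrawal and control is filled, at -0.18. The Scn1a intervals in the 2 comparisons with ethanol lie on one side of 0 without passing the threshold. So does the Scn2b interval between withdrawal and ethanol.

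Within the second index set, 2 withdrawal rats could be compared with the 6 ethanol rats. There, without surrogate variables, Scn1a differed by 0.25 (q = 0.829), Scn2b by -0.12 (q = 0.789) and Hcn2 by -0.068 (q = 0.949) on the log2 scale. In that comparison of 2 with 6 rats limma-voom called 0 members and 0 of the 17519 genes tested (0%), with 1067 genes (6.09%) and 0 members at an unadjusted p under 0.05, so the lack of a call tells nothing particular about the members. The other 2 comparisons cannot be made within a set, since the first set holds control rats only.

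The members moved against each other from rat to rat within groups. Scn1a, Scn4b and Hcn2 lay above the mean of their group, and Scn2a, Scn8a and Scn3b below it, in ethanol rat 1 and withdrawal rat 5, the 2 rats lowest in CA1 markers. Ethanol rat 1, for example, ranked 1 of 18 for Scn4b and 2 for Hcn2, but 17 for Scn3b and 18 for both Scn2a and Scn8a. Ethanol rat 5 had the opposite order, ranking 18 for Scn1a, Scn4b and Hcn2 and 1 for Scn8a and Scn3b. Correlations of log2 CPM after subtracting the mean of each group describe this over 18 rats and carry no test, since all genes of a rat come from the same library and the same dissected piece. Hcn2 had r = 0.89 with Scn1a, 0.89 with Scn4b and -0.93 with Scn3b. Without the 3 rats, over 15, these were 0.83, 0.74 and -0.82. Scn2a and Scn8a had r = 0.89 over 18 rats and 0.87 over 15. Scn3a stood apart from both sets, with r between -0.35 and 0.49 with the other members over 18 rats and between -0.40 and 0.57 over 15.

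**Figure D4:**
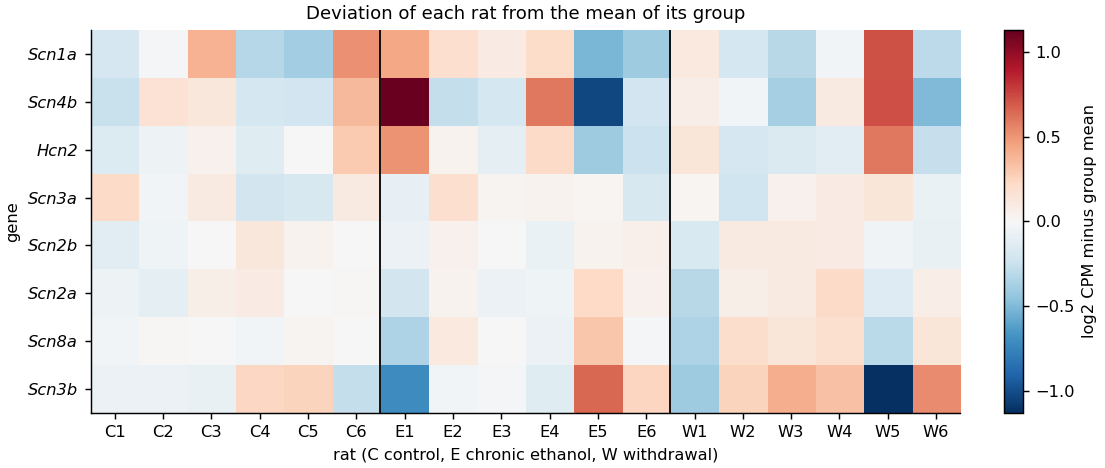
Log2 CPM of each gene in each rat minus the mean of the rat's group, in red where above and in blue where below. Scn1a, Scn4b and Hcn2 are red and Scn8a and Scn3b blue in ethanol rat 1 and withdrawal rat 5, and ethanol rat 5 shows the reverse.

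Marker levels of hippocampal fields and other cells moved with these genes. Scn3b had r = 0.92 with the summed CA1 markers over 18 rats (0.83 over 15), Scn8a 0.85 (0.74), Scn4b -0.87 (-0.55) and Hcn2 -0.92 (-0.67). With the summed list of 9 parvalbumin interneuron markers, Scn1a had r = 0.91 (0.84), Hcn2 0.90 (0.82) and Scn3b -0.92 (-0.83). The genes of this list did not all move together. In ethanol rat 1 Pvalb was at 72.7 CPM, above the controls (37.6 to 46.0). Gad1 was at 187.4 CPM in that rat, below the controls (199.8 to 311.2). Withdrawal rat 5 had the highest interneuron sum, 1356 CPM, against 694.2 to 1000 CPM in controls, together with the highest Scn1a and Hcn2 levels. With the thalamic markers Scn4b and Hcn2 both had r = 0.76 over 18 rats and 0.32 and 0.61 over 15. Without the 3 rats some of the other values changed little, some came closer to 0 and some moved away from 0. Some of the small values changed sign. Scn3b had r = 0.80 with the CA3 sum over 18 rats and 0.90 over 15, above its CA1 value over 15, and 0.77 and 0.76 with the dentate sum. Hcn2 had r = -0.74 and -0.76 with the dentate sum, Scn4b 0.73 and 0.74 with the cortical sum, and Scn2a 0.63 and 0.77 with the CA3 sum. With the endothelial sum, r over 18 and over 15 rats was 0.71 and 0.68 for Hcn2 and -0.73 and -0.71 for Scn3b. Those nearer 0 over 15 rats included Scn3b with the astrocyte sum (0.71 and 0.30), Scn4b with the neuronal sum (-0.73 and -0.44), and Hcn2 with the neuronal (-0.62 and -0.38) and astrocyte sums (-0.63 and -0.36). All lists were summed in the same 18 libraries, so these values are not separate observations. The part of tissue composition in the levels of the members was not tested.

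**Figure D5:**
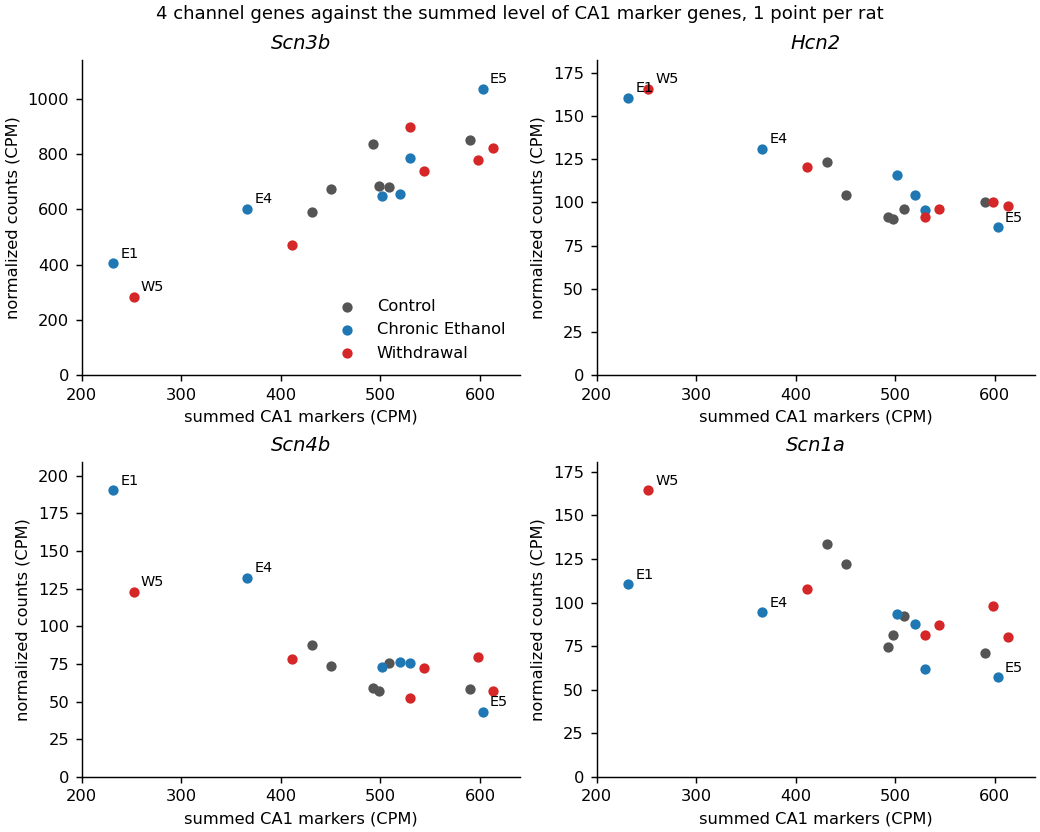
CPM of Scn3b, Hcn2, Scn4b and Scn1a against the summed CPM of 5 CA1 marker genes, with 1 point per rat coloured by group and the rats E1, E4, E5 (ethanol) and W5 (withdrawal) labelled. Scn3b is lowest, and the other 3 genes are high, in E1 and W5, whose CA1 sums are 231.6 and 252.0 CPM.

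The genes whose pattern across the 18 rats was most like each member, by the same group-centred Pearson r over the 17853 genes tested, are given as a description. For Scn1a they were Kcna2 (r = 0.98), which encodes the potassium channel Kv1.2, Ppm1a (0.951), a protein phosphatase gene, and Map3k9 (0.95). For Scn2a they were Kcnj3 (0.941), which encodes a GIRK channel subunit, the adhesion molecule gene Nrcam (0.916) and Atl1 (0.914). For Scn3a they were Adcyap1 (0.815), which encodes the peptide PACAP, Marcks (0.796) and Tapt1 (0.793). For Scn8a they were C6h14orf132 (0.953), Cttnbp2 (0.942) and the metabotropic glutamate receptor gene Grm5 (0.939). For Scn2b they were the cytokine gene Il34 (0.877), Acbd4 (0.857) and Gnpat (0.855). For Scn3b they were Gria1 (0.987), which encodes an AMPA receptor subunit, Neurod6 (0.986), a transcription factor gene of pyramidal neurons, and Kalrn (0.984). For Scn4b they were the dopamine receptor gene Drd2 (0.952), the enkephalin gene Penk (0.925) and Nfe2l1 (0.921). For Hcn2 they were Gap43 (0.96), a growth cone protein gene, Car8 (0.957) and Nfe2l1 (0.956). Without ethanol rats 1 and 4 and withdrawal rat 5, over 15 rats, the r of these 24 pairs lay between 0.761 (Scn4b with Nfe2l1) and 0.973 (Scn1a with Kcna2). Drd2 had r = 0.891 with Scn4b, and Gap43 0.878 with Hcn2. Drd2 was at 21.4, 14.8 and 15.4 CPM in ethanol rats 1 and 4 and withdrawal rat 5, with a control range of 2.55 to 5.41. Gria1 and Neurod6 were lowest in withdrawal rat 5, at 178.1 and 73.1 CPM.

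The other listed sodium channel, HCN and leak channel genes gave no call. Of 8 such genes, 6 were tested and 0 passed the threshold in any of the 3 comparisons by limma-voom, with 1, 2 and 3 at an unadjusted p under 0.05 between withdrawal and control, ethanol and control, and withdrawal and ethanol, where 19.7%, 12.5% and 16.7% of all genes had such a p. Scn10a and Scn11a, alpha subunit genes of sensory neurons, had at most 4 and 13 counts in a rat and were not tested. Nalcn came closest, with a log2 difference of -0.13 between withdrawal and control (SE 0.043, q = 0.108, exact permutation p = 0.0346). Its levels were 183.8 to 211.4 CPM in controls (median 194.5), 179.7 to 189.7 in ethanol rats (median 182.8) and 167.6 to 191.8 in withdrawal rats (median 179.6).

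Hcn4, the HCN gene best known from thalamus and heart, and Scn7a had higher means in ethanol than in control rats and fitted differences of the opposite sign. Hcn4 was at 7.80 ± 6.18 CPM in ethanol and 6.03 ± 3.21 CPM in control rats, with an unadjusted log2 difference of 0.18 and a fitted one of -0.48 (q = 0.204). Scn7a was at 7.51 ± 7.37 and 5.01 ± 3.15 CPM, with 0.30 unadjusted and -0.73 fitted (q = 0.249). Ethanol rat 1 was the highest of all rats for both. With the 3 rats left out, the means of the 4 remaining ethanol rats were 4.25 ± 1.31 CPM for Hcn4 and 3.21 ± 0.808 CPM for Scn7a, below the control means. Hcn4 had r = 0.97 and Scn7a 0.85 with the summed thalamic markers over 18 rats, and 0.95 and 0.71 over 15. Between withdrawal and ethanol, the fitted differences were 0.61 for Scn7a (q = 0.274) and 0.35 for Hcn4 (q = 0.284). The unadjusted ones were -0.47 and -0.30. In the same comparison Scn4a differed by -0.37 (q = 0.183), Scn9a by 0.11 (q = 0.746) and Hcn3 by 0.15 (q = 0.584).

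Genes whose products bind, place or regulate these channels held 1 call in each of 2 comparisons, and their shares called are given beside those of all genes. Of 29 partner genes, all tested, 0 were called between withdrawal and control or between ethanol and control by limma-voom (3 and 4 at an unadjusted p under 0.05, where 19.7% and 12.5% of all genes had one). Between withdrawal and ethanol, 1 of the 29 was called, beside 2.72% of all genes. Camk2d, which encodes a calcium/calmodulin-dependent kinase subunit, rose by 0.21 (SE 0.050, q = 0.0628). Its levels overlapped widely, with 90.9 ± 41.2 CPM in withdrawal and 86.5 ± 35.8 in ethanol rats (SD, n = 6), and without surrogate variables the difference was 0.065 (q = 0.926). Of 17 genes of the axon initial segment and node, all tested, 1 was called between withdrawal and control, beside 5.41% of all genes. Kif5b, a kinesin motor gene, rose by 0.19 (SE 0.054, q = 0.0710), from 417.9 ± 29.95 to 482.7 ± 29.7 CPM. The anchoring gene Ank3 and the others of that list were not called. In the other comparisons limma-voom called 0 of the 17, with 7 (ethanol and control) and 1 (withdrawal and ethanol) at an unadjusted p under 0.05, beside 12.5% and 16.7% of all genes. Without surrogate variables the call was lost (0.21, q = 0.252). The median log2 fold change between withdrawal and control was -0.026 over the partner genes and -0.035 over the initial segment genes, beside 0.00030 over all genes.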

How the data were processed

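RNA from the dorsal hippocampus of 18 rats (RIN above 8 per the labels) was sequenced as stranded read pairs. Per the file headers and the study's methods, the authors aligned reads to Rnor_6.0 with STAR 2.5.2a and made raw gene counts by exon, strand and gene ID with featureCounts 1.5.0. FastQC 0.11.4 and R 3.3.3 are named in the submitters' processing notes. The deposited values are these counts, not normalized.

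Gene IDs were named from a RefSeq table of GRCr8, with 29322 of 38445 IDs matched. Genes with over 0.5 CPM in at least 1 rat (17853) were kept and scaled by TMM. Counts were tested with limma-voom (limma 3.58.1, edgeR 4.0.16, R 4.3.3) on all 3 groups with 3 surrogate variables from sva 3.50.0, estimated from log2 CPM (prior count 2). The threshold was q under 0.1 over all genes. Alternatives were edgeR's quasi-likelihood test, DESeq2 1.42.0, other numbers of surrogate variables, scalings and filters, a stricter threshold, 2 groups only, a replicate block, the second index set and each rat left out. On simulated counts for withdrawal against control (17853 genes, 200 changed 2-fold), the test recovered 180 with 19 false calls. The simulated counts held a hidden source of variation that was balanced over the groups. They cannot speak to smaller differences, or to hidden sources that differ between groups.

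The members and the lists were chosen with earlier results of these data known, and some listed genes are not reported here. Genes named for likeness were the 3 with a symbol whose group-centred log2 CPM had the highest Pearson r with each member. Total counts were 30873228 to 42679748 per rat. As a check for a library deposited more than once, counts were compared within groups, and no 2 rats agreed within counting noise (smallest chi-square per degree of freedom 5.44 over 45 pairs).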

Additional observations from a re-analysis of the deposited data

Results flagged for a closer look

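Of 42 groups of 6 rats examined with Dixon's test (14 channel genes in 3 groups), 2 held a rat far from the others, and chance gives about 1 in 20. Scn1a was at 164.4 CPM in withdrawal rat 5 and at 80.5 to 107.7 CPM in the other 5 withdrawal rats. Scn9a, an alpha subunit gene best known from sensory neurons that lies next to Scn1a, was at 11.34 CPM in the same rat and at 3.32 to 5.63 CPM in the others. Withdrawal rat 5 had a summed CA1 marker level of 252.0 CPM, below all 6 controls, and the part of tissue composition in these values was not tested.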

How the results depend on the processing

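Of 800 values of the 8 genes under 34 other settings, 727 kept their direction and their side of the threshold, 6 lost the call, 7 gained one and 60 turned direction. The reversals concern small differences, none of them called. Scn2b was lower in withdrawal than in control rats under all settings that gave this comparison, at -0.20 to -0.16 in 15 other settings, of which 11 passed the threshold, and passed it in 16 of 18 fits without 1 rat (-0.21 to -0.15). The number of members called in that comparison was 0 without surrogate variables (limma-voom q = 0.209 for Scn2b, edgeR q = 0.186), without control rat 6 or withdrawal rat 6 and without the 3 rats lowest in CA1 markers (q = 0.197, or 0.213 without surrogate variables), a setting chosen after seeing the data. Scn1a made the count 1 between ethanol and control with 4 surrogate variables (q = 0.0983), with DESeq2 (q = 0.0515) and without withdrawal rat 5 (q = 0.0965). It made it 1 between withdrawal and ethanol with 4 surrogate variables (q = 0.0586), DESeq2 (q = 0.0725), a filter of over 0.5 CPM in 6 rats (q = 0.0793) and without the 3 rats (q = 0.0916). Leaving out 1 rat gave 0 to 1 members in each of the 2 comparisons with control. The causes were not tested.

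The calls over all genes moved as well. Between withdrawal and control they were 965, with 41 and 33 without surrogate variables (limma-voom, edgeR), 594 with 2 and 1362 with 4, 1624 with DESeq2, 486 with no filter, 370 at q under 0.05, 210 without the 3 rats (52 also without surrogate variables) and 23 to 1911 without 1 rat (fewest without withdrawal rat 6, where Scn2b lost its call, and most without withdrawal rat 2). Between ethanol and control they were 88, with 50 and 62 without surrogate variables, 221 with 4, 473 with DESeq2, 9 with no filter, 10 at q under 0.05, 28 with 2 groups only, 148 without the 3 rats (0 also without surrogate variables, with 1424 at an unadjusted p under 0.05) and 0 to 258 without 1 rat. Between withdrawal and ethanol they were 486, with 621 and 682 without surrogate variables (limma-voom, edgeR), 260 with 2 and 896 with 4. They were 1176 with DESeq2, 166 with no filter and 112 at q under 0.05. With 2 groups only they were 0 (2420 at an unadjusted p under 0.05), and in the second index set 0 (1067). Without the 3 rats they were 272 (50 also without surrogate variables), and without 1 rat 0 to 1800. The 0 came without ethanol rat 2 or 3 or withdrawal rat 6, and the most without ethanol rat 5.

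Reversed log2 differences between withdrawal and control were 0.099 (limma-voom) and 0.10 (edgeR) for Scn1a without surrogate variables, 0.0084 with 4, 0.0014 with the filter in 6 rats and 0.094 without the 3 rats. For Scn2a they were 0.0055 with no filter and 0.039 or, without surrogate variables, 0.017 without the 3 rats, where Scn3b was at 0.020. For Scn4b they were -0.033 with no filter, -0.0088 with 2 groups only and -0.021 without the 3 rats and surrogate variables. Between ethanol and control, Scn3b was at -0.11 (limma-voom) and -0.063 (edgeR) without surrogate variables and -0.0048 with 2. With 2 groups only, Scn3a was at 0.020, Scn4b at -0.068 and Hcn2 at -0.0064. Without the 3 rats and surrogate variables Scn4b was at -0.049 and Hcn2 at -0.0049. Between withdrawal and ethanol, Hcn2 was at -0.046 (limma-voom) and -0.045 (edgeR) without surrogate variables, -0.0049 with 2, -0.012 with no filter, -0.012 with 2 groups only and -0.068 in the second index set. Scn4b was at 0.015 with 4 surrogate variables and at 0.11 or, without surrogate variables, 0.027 without the 3 rats. Without 1 rat, the ranges were -0.067 to 0.028 (Scn1a), -0.030 to 0.045 (Scn2a), -0.0037 to 0.075 (Scn3a) and -0.017 to 0.14 (Scn4b) between withdrawal and control. They were -0.036 to 0.033 (Scn3a) and -0.0012 to 0.091 (Scn3b) between ethanol and control, and -0.0092 to 0.090 (Scn3a), -0.19 to 0.11 (Scn4b) and -0.041 to 0.049 (Hcn2) between withdrawal and ethanol.

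The calls over all genes were 1062, 69 and 471 with scaling by library size only and 1055, 121 and 511 with the filter in 6 rats. The number of called genes among the channel lists, 1, 0 and 1, moved beside these and the totals given above. Between withdrawal and control it was 0 without surrogate variables (limma-voom and edgeR, and without the 3 rats), with no filter or with q under 0.05, 3 with 4 surrogate variables, and 2 with DESeq2, scaling by library size only or without the 3 rats. Between ethanol and control it was 2 with 4 surrogate variables, 3 with DESeq2, and 1 with scaling by library size only, the filter in 6 rats, 2 groups only or without the 3 rats. Between withdrawal and ethanol it was 2 with DESeq2, and 0 with 2 surrogate variables, no filter, q under 0.05, 2 groups only, the second index set or without the 3 rats and surrogate variables. Without 1 rat it ran from 0 to 5, 0 to 2 and 0 to 4 in the 3 comparisons. The first was 0 without control rat 1, 4, 5 or 6 or withdrawal rat 1, 3 or 6, 2 without control rat 2 or ethanol rat 5, 3 without withdrawal rat 5 and 5 without withdrawal rat 2. The second was 2 without ethanol rat 5 or withdrawal rat 5 and 1 without withdrawal rat 1. The third was 0 without control rat 2 or 6, ethanol rat 2, 3 or 6 or withdrawal rat 6, 2 without withdrawal rat 2 and 4 without ethanol rat 5.

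The replicate numbers are shared by the groups. Deviations from the group means had correlations of -0.325 to 0.383 over 18 same-numbered pairs. These values cannot show whether such rats were paired by design. The study's methods state pair feeding without naming the pairs. With a replicate block, Scn2b was at -0.18 (q = 0.0647), the members called were 1, 0 and 0 beside 914, 26 and 1 of all genes, Scn3a between ethanol and control was at 0.0097, and Camk2d lost its call (q = 0.152, 0 list genes called).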
